A study of Mus musculus with 9 samples.

Results

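Ribosome biogenesis and nucleolar genes were followed in sorted mouse marrow cells across leukemia. The 44 genes were chosen by name, with earlier results of these data known. They encode nucleolar scaffold proteins and chaperones, RNA polymerase subunits, small nucleolar ribonucleoproteins and assembly factors of both ribosomal subunits. Of them, 43 had a probe set annotated to their symbol alone, out of 18193 genes named in the series, and where a gene had several, the brightest by mean log2 intensity was used. Npm3 had no such probe set and was not analysed here. The cells were CD45.1+ LKS+ bone marrow cells of C57BL/6 mice aged 8 weeks, a fraction low in lineage markers and positive for Kit and Sca-1 that holds blood stem and early progenitor cells. The 3 groups, with 3 arrays each, came from leukemic mice at day 14, leukemic mice at day 7 and control mice. The labels call these cells normal. They do not say how the leukemia was started, give no treatment and no time for the controls, and do not say whether a replicate was 1 mouse or a pool, so p-values measure the spread between these samples.

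Ribosomes are built in the nucleolus, where RNA polymerase I transcribes a long precursor of the ribosomal RNAs. Small nucleolar ribonucleoproteins modify that precursor, and large sets of assembly factors fold it, cut it and join it to ribosomal proteins before the small and large subunits leave for the cytoplasm. Output is tied to growth and division through MYC among others, and blood stem cells are known for a low rate of protein synthesis that rises as they become progenitors.

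RNA was measured on Affymetrix Mouse Genome 430 2.0 arrays, whose unit is a probe set intensity. The number of arrays limits the precision. Arrays of 1 group correlated at 0.994 to 0.997 across the 12652 genes tested. Of 9 listed markers of the sorted fraction, 8 were measured, and each of the 8, Kit, Cd34 and Flt3 among them, lay above the 40th percentile of the array in all 9 arrays. The same held for all 8 listed megakaryocyte and platelet markers and all 11 measured cycling-cell markers, so this does not tell cell types apart. The 75th percentile of intensity was 115 to 119 in day 14 arrays and 127 to 130 in the other 6, so the scaling of the arrays bears on small changes at day 14. In bulk RNA, fewer cells of a type and less RNA per cell cannot be told apart.

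At day 14 most of the ribosome biogenesis genes were lower than in control cells. With limma and Benjamini-Hochberg adjustment over all genes tested, called at an adjusted p below 0.05, 32 of 43 fell, 0 rose and 11 did not pass. Of all genes tested, 34.1% fell, 18.3% rose and 52.4% were called in either direction. The median log2 change of the 43 genes was -0.38, beside -0.06 for all genes tested, and single genes ran from -0.76 (Nop16) to 0.25 (Ddx21, not called). For 34 of 43 genes every day 14 array lay below every control array, which held for 37.3% of all genes. The falls were mostly under 1.5-fold: 7 of 43 were called lower by at least that much, beside 9.27% of all genes.

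The scaling of the arrays moved these counts. With all arrays set to the same 75th percentile, 23 of the 43 genes fell and 2 rose, Ddx21 and Tsr1. Under that scaling 23.2% of all genes fell and 31.2% rose, and the median of all genes moved to 0.06. After quantile normalization 30 of the 43 genes fell and 0 rose, beside 26.8% and 22% of all genes.

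**Figure D1:**
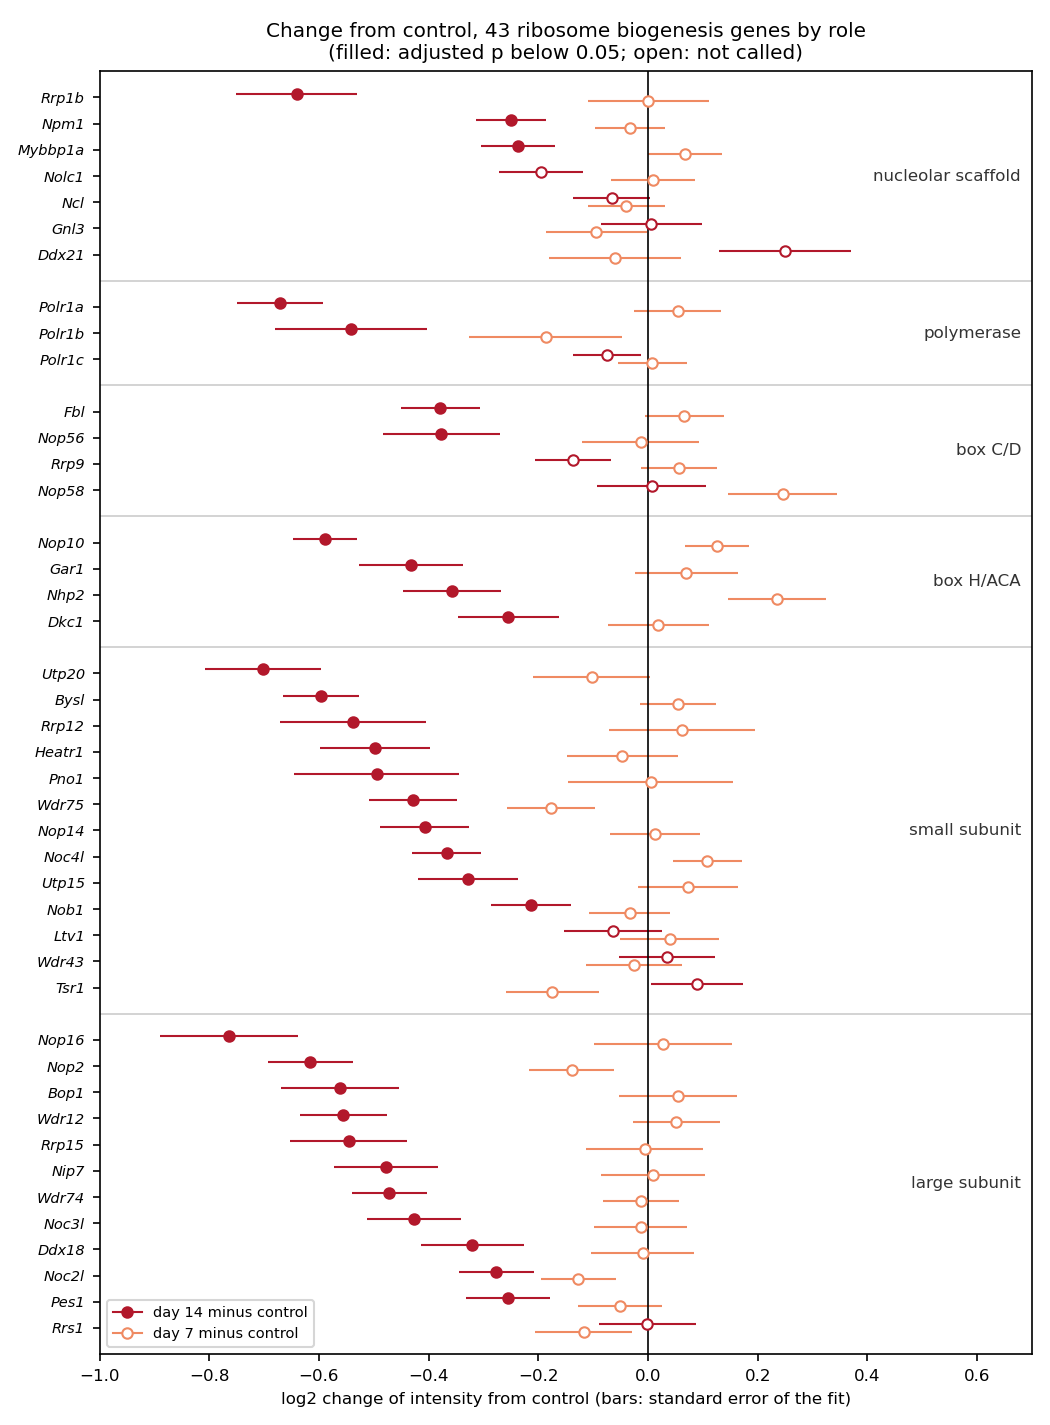
Log2 change in intensity with its standard error for each of the 43 genes, grouped by role, for day 14 against control (dark red) and day 7 against control (orange); filled points were called and open points were not, and the line at 0 marks no change. The changes at day 14 lie mostly to the left of 0, and those at day 7 lie between -0.19 and 0.25.

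Among nucleolar scaffold proteins and chaperones, 3 of 7 measured genes (42.9%) fell at day 14, near the 34.1% of all genes, and 4 did not pass. The median log2 change was -0.20. Rrp1b, a nucleolar protein of ribosomal RNA processing, had intensities of 352, 426 and 430 at day 14, 642, 652 and 583 at day 7 and 551, 722 and 613 in control cells. The day 14 arrays lay below all others, and the log2 change from control was -0.64 (SE 0.11, limma adjusted p = 0.00091). The other 2 Rrp1b probe sets changed by -0.18 and 0.02 and were not called, so the probe sets of this gene disagree in size and in call.

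Npm1 encodes nucleophosmin, an abundant nucleolar histone and ribosomal protein chaperone. It measured 4541, 4983 and 5160 at day 14, 5519, 5695 and 5837 at day 7 and 5801, 5922 and 5719 in control cells. The groups at day 14 and in control did not overlap, and the log2 change of -0.25 (SE 0.06, limma adjusted p = 0.0084) was 1.19-fold lower. That call was lost with arrays set to the same 75th percentile (log2 change -0.13), and another Npm1 probe set changed by -0.06 and was not called. Mybbp1a, a nucleolar regulator of transcription, fell by 0.24 on the log2 scale, a call lost with that scaling too (log2 change -0.12).

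Ncl, which encodes nucleolin, a major nucleolar RNA-binding protein, measured 3736, 4049 and 3862 at day 14, 3920, 3922 and 4013 at day 7 and 3922, 4457 and 3835 in control cells. The 3 groups overlapped, and the log2 change from control was -0.07 (SE 0.07, limma adjusted p = 0.45). A second Ncl probe set was called lower, at -0.38, in a fit of every probe set. Nolc1, a chaperone of small nucleolar ribonucleoproteins, had a log2 change of -0.20 (limma adjusted p = 0.053) and was called lower in several alternatives. In the fit of every probe set, another Nolc1 probe set was called lower, at -0.58. A further one changed by -0.21 and was not called. Gnl3, the nucleolar GTPase nucleostemin, had a log2 change of 0.01. Ddx21, an RNA helicase of ribosomal RNA transcription and processing, measured 508, 557 and 479 at day 14, 449, 417 and 381 at day 7 and 402, 528 and 380 in control cells. Its log2 change of 0.25 (limma adjusted p = 0.10) was the highest of the 43 genes and was not called. It was called higher without control replicate 2 (0.39), and its second probe set was called higher at 0.42.

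The polymerase subunits were Polr1a and Polr1b, which form the catalytic core of RNA polymerase I, and Polr1c, shared with RNA polymerase III. Polr1a measured 96.8, 111 and 120 at day 14, 177, 178 and 185 at day 7 and 167, 178 and 176 in control cells. Every day 14 array lay below the other 6, at a log2 change from control of -0.67 (SE 0.08, limma adjusted p = 0.00010). Polr1b fell by 0.54 on the log2 scale, and the change of Polr1c was -0.07, not called.

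Box C/D ribonucleoproteins place methyl groups on ribosomal RNA, with fibrillarin (Fbl) as the methyltransferase. Fbl measured 1851, 2026 and 2173 at day 14, 2732, 2774 and 2713 at day 7 and 2634, 2754 and 2469 in control cells. The day 14 arrays stood below the rest, with a log2 change from control of -0.38 (SE 0.07, limma adjusted p = 0.0017). Nop56, a core scaffold of these particles, measured 947, 1083 and 1215 at day 14, 1329, 1404 and 1421 at day 7 and 1298, 1610 and 1305 in control cells. Its log2 change was also -0.38 (SE 0.11, limma adjusted p = 0.013), and the call was lost without day 14 replicate 1, where it was -0.28.

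Nop58, the partner scaffold of Nop56, measured 1870, 2014 and 2108 at day 14, 2298, 2325 and 2442 at day 7 and 1955, 2319 and 1727 in control cells. The day 14 and control arrays overlapped, with a log2 change of 0.01 that was not called. Rrp9, a protein of the particle that guides early cuts for the small subunit, changed by -0.14 and was not called either. Of the 4 box C/D genes, 2 (50%) fell at day 14, beside 34.1% of all genes.

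Box H/ACA ribonucleoproteins convert uridine to pseudouridine, and their core proteins are also part of telomerase. All 4 core genes, Dkc1, Gar1, Nhp2 and Nop10, fell at day 14, beside 34.1% of all genes. Their median log2 change was -0.39. Nop10, the smallest of the core proteins, measured 2099, 2167 and 2265 at day 14, 3636, 3572 and 3508 at day 7 and 3218, 3393 and 3214 in control cells. Its log2 change from control, -0.59 (SE 0.06, limma adjusted p = 3.9e-05), had the lowest adjusted p of the 43 genes, and the day 14 arrays were well apart from the rest. Gar1 measured 567, 589 and 675 at day 14, 861, 882 and 844 at day 7 and 807, 933 and 736 in control cells, a log2 change of -0.43 (SE 0.09, limma adjusted p = 0.0036). Nhp2 fell by 0.36 and Dkc1, the pseudouridine synthase itself, by 0.25 on the log2 scale. The Dkc1 call was lost in most alternatives, those without day 14 replicate 1 or control replicate 2 among them. Over all alternatives its log2 change ran from -0.33 to -0.13. Other Dkc1 probe sets changed by -0.32 and 0.09 and were not called in a fit of every probe set.

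**Figure D2:**
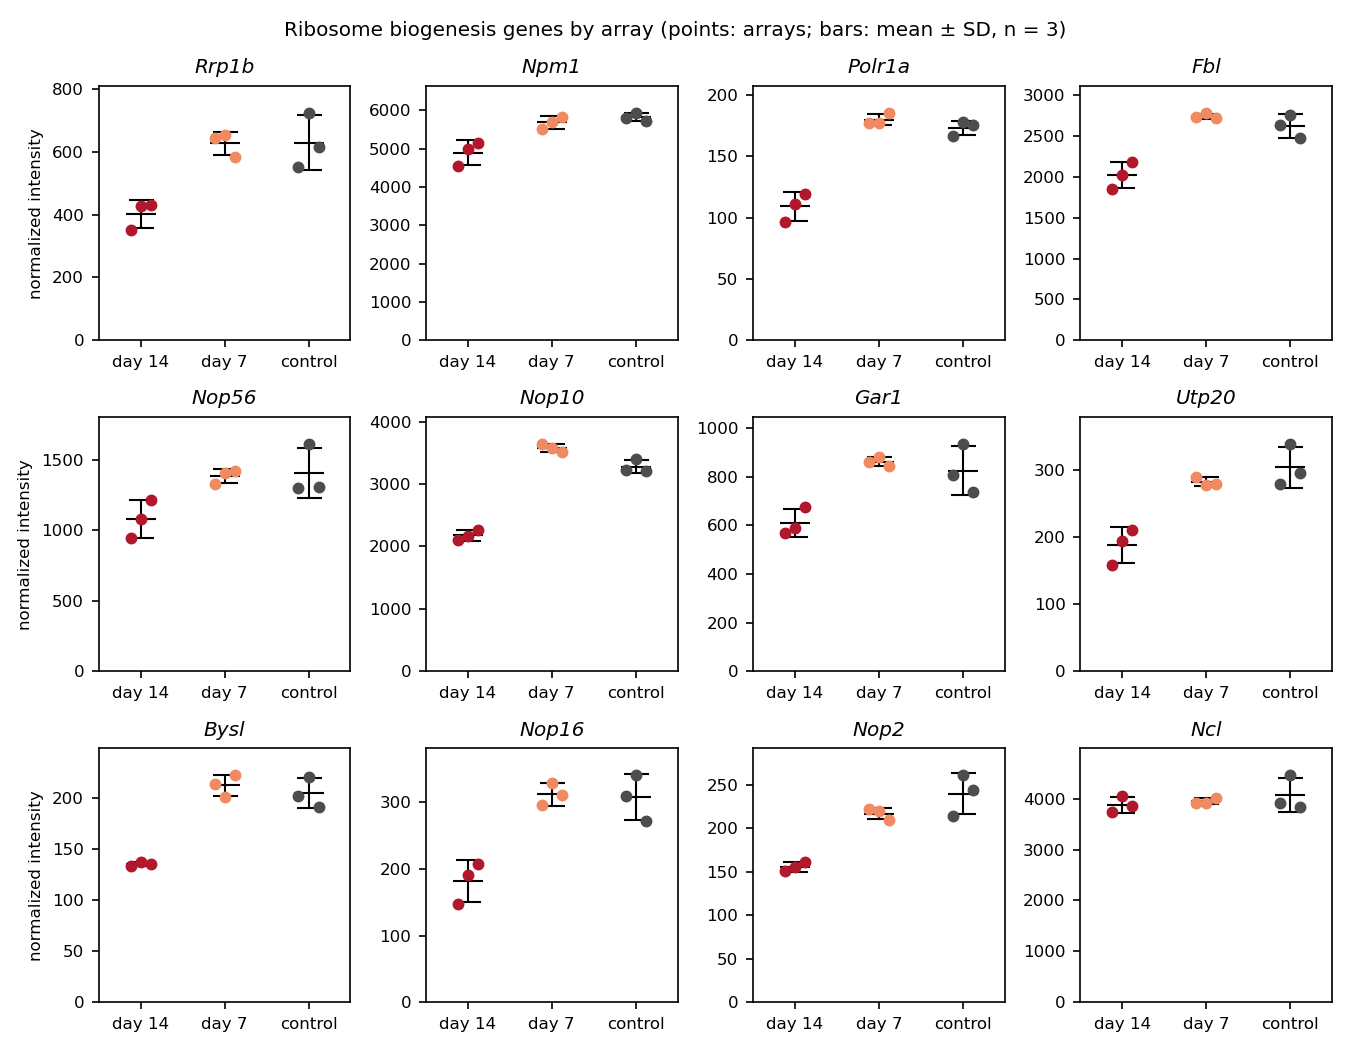
Intensity (linear scale, from 0) of the 12 genes named by rule in each of the 3 day 14, 3 day 7 and 3 control arrays; points are arrays, and the bars mark the mean and SD. For 11 of the 12 genes the day 14 points lie below all control points, while those of Ncl overlap with control. Most of the 12 were picked for the largest change at day 14 in their role, which favours such separation. It held for 37.3% of all genes tested.

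Of 13 small subunit assembly genes, 10 (76.9%) fell at day 14, beside 34.1% of all genes, and 3 did not pass. The median log2 change was -0.41. Utp20, a scaffold of the large complex that forms on the nascent precursor, measured 159, 194 and 211 at day 14, 290, 279 and 280 at day 7 and 280, 339 and 296 in control cells. Bysl, which acts later on the maturing small subunit, measured 133, 137 and 135 at day 14, 214, 202 and 223 at day 7 and 203, 221 and 191 in control cells. For both genes each day 14 array lay below each of the other 6. The log2 change of Utp20 from control was -0.70 (SE 0.11, limma adjusted p = 0.00043), and that of Bysl was -0.60 (SE 0.07, limma adjusted p = 9.5e-05).

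Genes of the early complex that couples transcription to processing also fell: Heatr1 by 0.50, Wdr75 by 0.43 and Utp15 by 0.33 on the log2 scale, while Wdr43 of the same complex had a log2 change of 0.03 and was not called. Nop14 (-0.41) and its partner Noc4l (-0.37) fell, as did Rrp12 (-0.54), an export factor, and Pno1 (-0.49), which binds the small subunit precursor. Nob1, the endonuclease that makes the last cut of the small subunit RNA, fell by 0.21 on the log2 scale. Tsr1 and Ltv1, which bind the late cytoplasmic precursor, had log2 changes of 0.09 and -0.06 and were not called. The calls of Heatr1, Utp15, Pno1 and Nob1 were each lost in at least 1 alternative.

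Of 12 large subunit assembly genes 11 (91.7%) fell, beside 34.1% of all genes, with a median log2 change of -0.47. No test compared the roles. Nop16, a nucleolar factor of large subunit assembly, measured 147, 191 and 208 at day 14, 295, 329 and 310 at day 7 and 309, 340 and 271 in control cells. Its log2 change from control of -0.76 (SE 0.13, limma adjusted p = 0.00071), 1.70-fold lower, was the largest of the 43 genes. Nop2, a methyltransferase of large subunit RNA, measured 150, 155 and 162 at day 14, 221, 219 and 209 at day 7 and 214, 261 and 243 in control cells, a log2 change of -0.62 (SE 0.08, limma adjusted p = 0.00015). Both genes had all day 14 arrays below the other 6.

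Bop1, Pes1 and Wdr12 form a complex needed to process the large subunit RNA, and they fell by 0.56, 0.26 and 0.56 on the log2 scale. Rrp15 (-0.55), Nip7 (-0.48), Wdr74 (-0.47) and the helicase gene Ddx18 (-0.32) also fell. So did Noc3l (-0.43) and Noc2l (-0.28), which form related dimers on early and middle large subunit precursors in yeast. Rrs1, which helps to bring the small ribosomal RNA of the large subunit into place, had a log2 change of -0.00 and was not called. The calls of Pes1, Ddx18 and Noc2l were lost with arrays set to the same 75th percentile.

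Promoters were read for the 38 of 43 genes found in a RefSeq promoter table of build GRCm38.p6, and searched for the E-box CACGTG, which MYC with MAX can bind and which reads the same on both strands. The 250 bases before the start held it in 1 of the 38 genes (2.63%), Nop2, beside 9.76% of 10252 tested genes with a promoter in the table. With the first 50 bases after the start included, 8 of 38 genes (21.1%) held it, beside 11.5%. A further motif bound by ETS factors, CCGGAAG on either strand, was chosen after the promoters were seen. It was in the 250 bases before the start of 9 of 38 genes (23.7%), beside 15.1% of the tested genes with a promoter. These matches describe letters in a window and show no binding. The 250 bases are printed 5′ to 3′ on the gene's strand, with the last base next to the start, for Nop2, the gene with the E-box, for Nop16, whose intensity fell most, and for Ncl, which was not called; capitals mark the E-box and, after it, the ETS motif.
Nop2 chr6:125131633-125131882 (plus strand): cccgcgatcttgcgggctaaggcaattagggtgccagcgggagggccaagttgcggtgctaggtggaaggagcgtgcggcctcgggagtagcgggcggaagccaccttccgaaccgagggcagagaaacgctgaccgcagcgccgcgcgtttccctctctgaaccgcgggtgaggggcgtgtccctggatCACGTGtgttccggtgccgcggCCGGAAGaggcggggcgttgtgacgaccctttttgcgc
Nop16 chr13:54590075-54590324 (minus strand): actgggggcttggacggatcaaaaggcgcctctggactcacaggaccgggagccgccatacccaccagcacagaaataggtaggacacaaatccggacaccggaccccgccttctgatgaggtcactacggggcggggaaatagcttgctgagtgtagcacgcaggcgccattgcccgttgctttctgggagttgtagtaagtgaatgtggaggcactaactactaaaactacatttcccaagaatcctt
Ncl chr1:86359456-86359705 (minus strand): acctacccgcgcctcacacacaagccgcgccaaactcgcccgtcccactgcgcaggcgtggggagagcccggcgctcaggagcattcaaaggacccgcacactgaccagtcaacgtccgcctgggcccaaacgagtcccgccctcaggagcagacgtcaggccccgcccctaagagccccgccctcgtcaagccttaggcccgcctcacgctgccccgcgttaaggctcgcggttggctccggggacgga
In Nop2 the E-box begins 60 bases and the ETS motif 38 bases before the start, and neither motif was in the windows of Nop16 or Ncl.

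At day 7 the same genes could not be told from control cells in this design. With limma and Benjamini-Hochberg adjustment 0 of 43 genes were called, beside 3.34% of all genes tested, 2.21% higher and 1.13% lower. At an unadjusted p below 0.05 there were 2 of 43 (4.65%), beside 19.8% of all genes. The median log2 change was 0.00, beside 0.01 for all genes, and single genes ran from -0.19 (Polr1b) to 0.25 (Nop58). The 95% intervals of the 43 changes together spanned -0.50 to 0.47 on the log2 scale. For single genes, changes toward these ends were therefore not excluded. The lowest adjusted p was that of Nhp2, 0.18.

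Nhp2 measured 1928, 1856 and 1860 at day 7 and 1599, 1792 and 1424 in control cells, and every day 7 array lay above every control array. This also held for Nop10 (log2 change 0.13) and Noc4l (0.11), while for Wdr75 (-0.18) and Tsr1 (-0.17) every day 7 array lay below the controls. These 3 and 2 of 43 genes stand beside 15.2% and 11.3% of all genes. Nop58 was called higher without control replicate 2, at a log2 change of 0.36 (limma adjusted p = 0.044).

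Day 14 was also compared with day 7 directly, and this also tests the difference between the 2 stages' changes from control. The comparison shares the day 14 arrays with that of day 14 against control. Of the 43 genes 31 fell, 1 rose and 11 did not pass; the median log2 change was -0.40 beside -0.06 for all genes. Of all genes tested 33.6% fell, 17.4% rose and 51% were called in either direction. With arrays set to the same 75th percentile, 22 of the 43 fell and 3 rose, beside 23.3% and 31.8% of all genes.

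The box H/ACA genes were lower than at day 7 in all 4 cases: Nop10 by 0.71, Nhp2 by 0.59, Gar1 by 0.50 and Dkc1 by 0.27 on the log2 scale. By role, 4 of 7 scaffold genes, 1 of 3 polymerase genes, 3 of 4 box C/D genes, 9 of 13 small subunit genes and 10 of 12 large subunit genes fell. These counts stand beside 33.6% of all genes, and the polymerase share (33.3%) was near it. Falls of at least 1.5-fold were called for 10 of 43 genes, beside 10.8% of all genes. Nop16 (-0.79), Polr1a (-0.73), Bysl (-0.65), Rrp1b (-0.64), Utp20 (-0.60), Nop2 (-0.48), Fbl (-0.45), Nop56 (-0.36) and Npm1 (-0.22) fell, and Ncl had a log2 change of -0.03 that was not called. Without day 14 replicate 1 the calls of Npm1, Nolc1, Nop56, Rrp9, Dkc1, Wdr75, Pno1, Pes1 and Ddx18 were lost. The Dkc1 call was also lost in several other alternatives, such as the mean of the gene's probe sets (-0.11).

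Tsr1 was the gene called higher at day 14 than at day 7. It measured 661, 754 and 748 at day 14, 637, 623 and 543 at day 7 and 661, 726 and 645 in control cells. All day 14 arrays lay above all day 7 arrays, with a log2 difference of 0.26 (SE 0.08, limma adjusted p = 0.024). That call was lost when dim probe sets were kept, when the gene's probe sets were averaged, and without day 14 replicate 2 (0.23), day 14 replicate 3 (0.24) or day 7 replicate 3 (0.19).

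Single arrays stood out at day 14 and in control. Relative to the control mean, their median log2 value was -0.50, -0.35 and -0.27 in the day 14 arrays, -0.01, 0.00 and 0.01 in the day 7 arrays and -0.05, 0.13 and -0.07 in the control arrays. The corresponding medians of all genes were -0.06, -0.08 and -0.05 at day 14, 0.01, 0.02 and 0.01 at day 7 and 0.00, 0.01 and -0.01 in control cells. Day 14 replicate 1 was the lowest of its group for 37 of 43 genes, and control replicate 2 the highest of its group for 39. No day 7 array was the lowest for more than 19 or the highest for more than 18 of the 43. Without day 14 replicate 1, 26 of 43 genes fell from control, and 22 fell and 1 rose from day 7. Without control replicate 2, 29 fell and 1 rose. The median SD of log2 intensity of the genes was 0.12 at day 14, 0.05 at day 7 and 0.12 in control cells (n = 3 each).

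**Figure D3:**
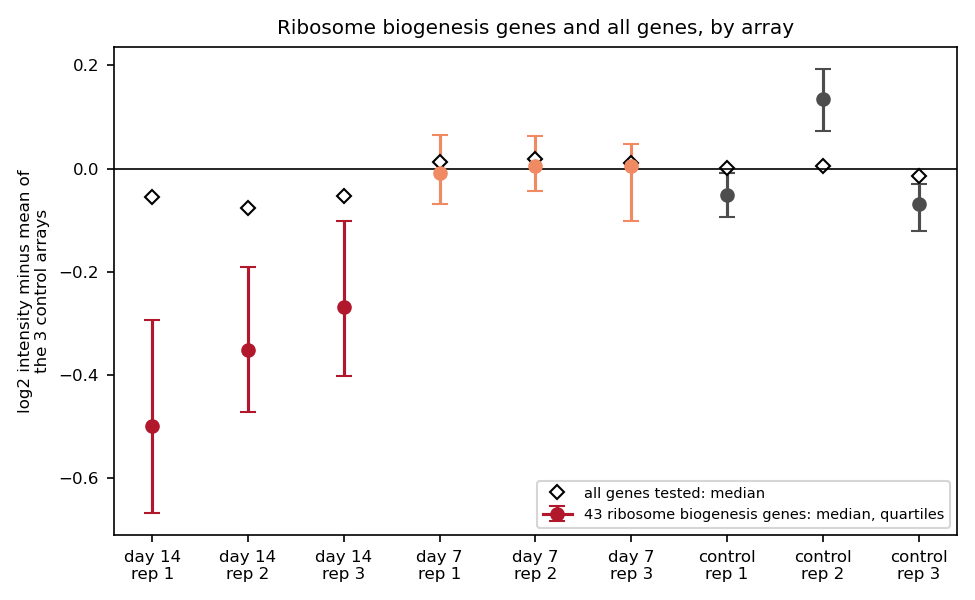
Median (point) and quartiles (bar) of the 43 genes' log2 intensity minus the control mean, and the median of all 12652 genes tested, in each array of the 3 groups. The genes' medians are -0.50 to -0.27 at day 14, while those of all genes lie between -0.08 and 0.02 in all 9 arrays.

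Other probe sets of the same genes gave a further reading. Of the 43 genes 29 had several probe sets, with 40 further bright ones. In a fit of every probe set for day 14 against control, 34 of these 40 had the sign of the probe set that stood for the gene, 19 were called lower and 1, of Ddx21, was called higher. No gene had probe sets called in opposite directions. The mean over probe sets gave log2 changes of -0.27 for Rrp1b, -0.31 for Polr1a and -0.16 for Npm1, all still called, and of -0.17 for Heatr1, no longer called. The Polr1a mean took in dim probe sets that were raised to the floor in all groups, which moved it toward no change. The bright Polr1a probe sets changed by -0.67, -0.38 and -0.52, and each was called lower in the fit of every probe set.

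The rest of the pathway, 138 listed genes of which 134 were measured, was also mostly lower at day 14. Against control 75 (56%) fell, 10 (7.46%) rose and 49 did not pass (median log2 change -0.31), beside 34.1% and 18.3% of all genes. With arrays set to the same 75th percentile 62 fell and 19 rose, beside 23.2% and 31.2% of all genes. Against day 7, 79 (59%) fell and 8 (5.97%) rose, beside 33.6% and 17.4% of all genes, and with that scaling 61 fell and 15 rose. At day 7 against control 2 of 134 (1.49%) rose and 0 fell, beside 2.21% and 1.13% of all genes: Abt1 (log2 change 0.40) and Znhit3 (0.46), factors of small subunit and of small nucleolar ribonucleoprotein assembly; both calls were lost when control replicate 3, or replicate 2 or 3 of day 7, was left out.

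Myc, the transcription factor that drives many ribosome biogenesis genes, measured 731, 661 and 769 at day 14, 967, 908 and 1065 at day 7 and 1096, 1256 and 1370 in control cells. The 3 groups did not overlap. Its log2 change from control was -0.78 (SE 0.10, limma adjusted p = 0.00014) at day 14 and -0.34 (adjusted p = 0.088, not called) at day 7, and day 14 lay below day 7 by a log2 difference of -0.44 (adjusted p = 0.0034). Mycn had log2 changes from control of -0.35 at day 14 and -0.60 at day 7, and neither was called (limma adjusted p = 0.062 and 0.051). Each was called lower in 5 alternatives, and with the mean of its probe sets the changes were -0.09 at day 14, not called, and -0.34 at day 7, called. Ubtf, which organises active ribosomal DNA, had a log2 change of -0.17 at day 14 (limma adjusted p = 0.046), a call lost in most alternatives, and Rrn3, an initiation factor of RNA polymerase I, one of -0.12 that was not called.

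Of 15 genes of RNA polymerase I and its regulators, 6 (40%) fell and 2 (13.3%) rose from control at day 14, near the shares of 34.1% and 18.3% over all genes. The subunit gene Cd3eap fell by 0.81 on the log2 scale, while Taf1d, of the promoter selectivity factor, and the subunit gene Twistnb rose by 0.50 and 0.33. Of 38 small subunit processome genes, 25 (65.8%) fell, Utp6 (-0.91) and Pwp2 (-0.58) among them, and 2 (5.26%) rose, Nol6 (0.34) and Abt1 (0.22). Of 9 small subunit maturation genes 4 (44.4%) fell and 2 (22.2%) rose, near the shares over all genes. The methyltransferase gene Bud23 fell by 0.46 and that of its partner Trmt112 by 0.39. Riok3, a kinase of the small subunit precursor, rose by 0.51 and Tsr2 by 0.30. With the mean over probe sets the Taf1d call was lost (log2 change 0.09) and Nol6 was at 0.21.

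Of 39 large subunit assembly factors 21 (53.8%) fell and 3 (7.69%) rose, beside 34.1% and 18.3% of all genes. Rpf2 was at -0.81, Ebna1bp2 at -0.72, Tex10 at 0.26 and Ddx54 at 0.25. With the mean over probe sets Rpf2 was at -0.27, Ebna1bp2 at -0.26 and Tex10 at 0.15, all still called. Of 6 genes of large subunit export and late maturation 2 (33.3%) fell and 1 (16.7%) rose, about the shares over all genes: those that fell were the GTPase gene Lsg1 (-0.59) and Eif6 (-0.31), whose mean over probe sets gave 0.15, and Zfp622 rose by 0.27 (0.02 as the mean over probe sets), a call lost without day 14 replicate 1 or control replicate 2. Of 7 small nucleolar ribonucleoprotein assembly genes 4 (57.1%) fell and 0 rose. The paired helicases Ruvbl1 and Ruvbl2 each had a log2 change of -0.67. Of 20 genes of the nuclear exosome and RNase MRP, which trim and cut the precursor, 13 (65%) fell and 0 rose. Exosc7 was at -1.02 and Pop5 at -0.92 (-0.37 as the mean over probe sets).

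**Figure D4:**
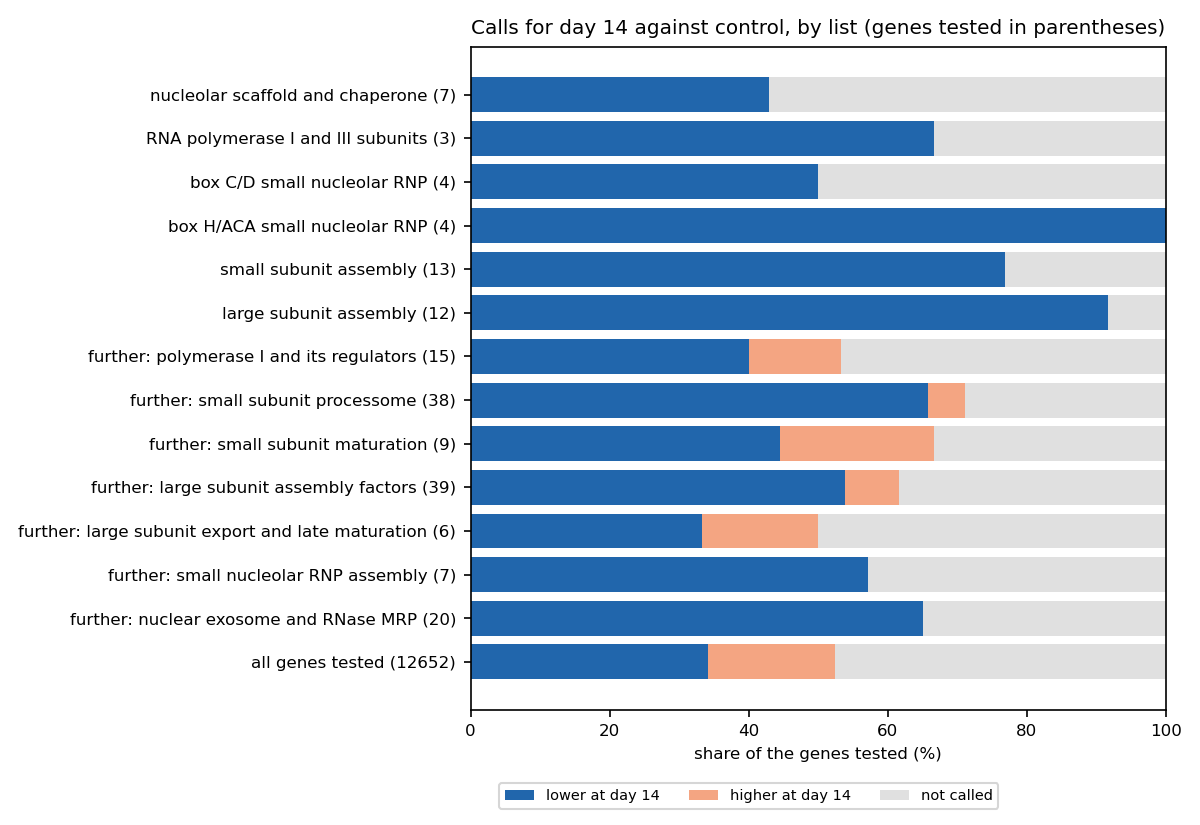
Share (%) of the genes tested that were called lower, called higher or not called for day 14 against control, in each role list of the 43 genes, each list of the further pathway genes (marked further) and all genes tested. Lower calls outnumber higher calls in every list shown, as they do among all genes tested (34.1% lower, 18.3% higher). The 43 genes hold 32 lower and 0 higher calls.

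Markers of the sorted fraction, of dividing cells and of other cell types also differed between the groups. For the 8 measured markers of the sorted fraction the sums were 9257 to 9950 at day 14, 9392 to 9943 at day 7 and 10134 to 10723 in control cells. Of these 8, 2 (25%) fell and 0 rose from control at day 14, beside 34.1% and 18.3% of all genes. Of 12 cycling-cell markers 11 were measured; their summed intensity was 6985 to 7766 at day 14, 14810 to 16740 at day 7 and 10722 to 14114 in control cells. All 11 fell from control at day 14 (median log2 change -0.84), beside 34.1% of all genes. At day 7, 7 of 11 rose (median 0.65), beside 2.21% of all genes. In that comparison 0 of 43 ribosome biogenesis genes were called, beside 3.34% of all genes. Of 8 megakaryocyte and platelet markers, all measured, 6 rose at day 14, and the sum was 1684 to 1968 at day 14, 826 to 885 at day 7 and 664 to 765 in control cells. For neutrophil and monocyte markers, 11 of 12 measured, the sums were 9950 to 12665 at day 14, 8311 to 10312 at day 7 and 7223 to 9146 in control cells. Of the 11, 4 rose and 2 fell from control at day 14, and 2 rose and 3 fell from day 7.

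For mast cell and basophil markers, 5 of 6 measured, the sums were 1193 to 1429 at day 14, 653 to 753 at day 7 and 467 to 651 in control cells. Of the 4 tested, 2 rose and 0 fell from control at day 14. Sums of B cell markers, 7 of 8 measured, were 339 to 437 at day 14, 304 to 371 at day 7 and 256 to 269 in control cells. Of these, 6 were tested, and 4 rose and 1 fell from control at day 14. The sums of all 8 T and NK cell markers were 781 to 883 at day 14, 988 to 1023 at day 7 and 849 to 946 in control cells, with Cd3g, Cd3d and Cd2 at or below the 40th percentile in all arrays. Of the 5 tested, 4 rose and 1, Nkg7, fell from control at day 14, with a median log2 change of 0.45, so the sum and most single markers ran opposite ways. The sums of erythroid markers, 6 of 8 measured, were 147 to 222 at day 14, 261 to 295 at day 7 and 188 to 923 in control cells, with Hba-a1, Alas2 and Slc4a1 at or below that percentile in all arrays. The part of cycling cells and of these cell types in the changes of the ribosome biogenesis genes was not tested.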

How the data were processed

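RNA of sorted CD45.1+ LKS+ cells was measured on 9 arrays, 3 per group, grouped and numbered by their sample labels. The values are the authors' deposited intensities, not on a log scale. Per the labels' design text, RNA went through 2 rounds of amplification and signals were normalized with Affymetrix software 5.0; equal values in at least 2 arrays in 51.64% of the 45037 probe sets leave the exact scaling unclear. Gene names came from the platform annotation (34945 with 1 symbol, 932 with several, 9160 with none), with symbols updated through a RefSeq table of GRCm38.p6.

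Values below the table's 20th percentile (5.81) were raised to it before log2. Genes were tested if above the 40th percentile of the array (14.1 to 15.2) in at least 3 arrays; all 43 genes passed. The fit was 1 limma 3.58.1 model (R 4.3.3) over 9 arrays without covariates, with moderated two-sided tests and Benjamini-Hochberg adjustment over 12652 genes. The limma fit was tested on simulated data with independent noise. For day 14 against control it called 69% of log2 changes of 0.5 in size and 96% of those of 1. Values per array were given for the 2 genes with the largest change in each role (1 for polymerase subunits), Ncl, Npm1 and Fbl; Nop58, Ddx21, Nhp2 and Tsr1 were added after their values were seen. Further pathway genes named were the 2 with the smallest adjusted p per direction in each list, with Myc, Mycn, Ubtf and Rrn3. The genes and lists were chosen with earlier results of these data known.

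Alternatives were quantile normalization, equal 75th percentiles, no floor, an offset of 32, omission of the filter on dim probe sets or its rise to the 60th percentile, averaging over probe sets of a gene, a block for the replicate number, fits of 2 groups alone, a trended robust prior, a 1.5-fold minimum, and omission of single arrays. The averages over probe sets took in dim probe sets too. A planned comparison of protein sequences was not run.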

Additional observations from a re-analysis of the deposited data

Results flagged for a closer look

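The change from control differed between day 14 and day 7 for 32 of the 43 genes, by limma's test of day 14 against day 7 with Benjamini-Hochberg adjustment over all genes. Of these, 31 were lower at day 14 than at day 7 and Tsr1 was higher. Of all genes tested, 51% were called in that comparison.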

How the results depend on the processing

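No alternative turned the direction of a called change of the 43 genes; among further genes named, Eif6 for day 14 against control turned from -0.31 to 0.15 with the mean of the gene's probe sets, where it was called no longer. Of the 32 genes called for day 14 against control, 21 kept their call in every alternative run other than the 1.5-fold threshold, and of the 32 called for day 14 against day 7 also 21. With the replicate number as a block the counts were 32, 0 and 32 for day 14 against control, day 7 against control and day 14 against day 7; deviations of same-numbered arrays correlated at -0.19 to 0.12, with 1 of 9 pairs over 0.1, so the numbers were not taken to pair arrays, and of those counts 31, 0 and 30 were genes called without the block: Dkc1 lost and Nolc1 gained a call against control, and Rrp9 and Pes1 lost and Ddx21 and Polr1b gained one against day 7. Leaving out each array in turn gave 26 to 32, 0 to 1 and 23 to 34 of the 43 genes, and 79 to 87, 0 to 4 and 77 to 91 of the 134 further pathway genes. Asking for a change of at least 1.5-fold left 7, 0 and 10 of the 43 genes and 22, 0 and 23 of the further genes. For day 7 against control, the 2 calls among further genes became 4 with the offset of 32, 1 with no filter, 4 with the stricter filter and 5 with the trended prior. The causes were not tested. All 43 genes passed the stricter filter on dim probe sets, while signal over background was not tested. With 3 arrays per group, changes of the size seen at day 7 were estimated with limited precision.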
